A study of Homo sapiens with 20 samples.

Results

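The neurotrophins are a small family of secreted growth factors that support the survival and maturation of neurons, and the genes followed here are 2 of these ligands (BDNF and NTF3) and 4 of their receptors (NTRK2, NTRK3, NGFR and SORT1). Each neurotrophin binds a Trk receptor tyrosine kinase with high affinity: BDNF binds TrkB, the product of NTRK2, and NT-3, the product of NTF3, binds TrkC, the product of NTRK3. All of them also bind the low-affinity receptor p75 encoded by NGFR, and the uncleaved precursors bind p75 together with sortilin, encoded by SORT1. Trk signalling is generally linked to survival and outgrowth, and precursor signalling through p75 and sortilin to cell death and pruning. The members were taken by name: for each symbol, the coding record that carries it was used, and where a symbol has several records the highest mean level decides. All 6 symbols had exactly 1 coding record, none of them merged with another gene, among 20237 coding records and 38369 records in all.

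The samples were polyadenylated RNA of neural progenitor cells derived from H1, a human embryonic stem cell line in wide use. FGF, a mitogen for progenitors, was withdrawn at day 0, and recombinant BDNF was supplied in the medium from then on, so every day after day 0 combines FGF withdrawal, a change of base medium and exogenous BDNF, and these cannot be told apart. The labels list 20 samples, 2 at day 5 and 3 at each of days 0, 1, 2, 4, 11 and 18, and the cells of days 5, 11 and 18 had been replated on another coating at day 4. All cultures come from a single line, and there is no culture without added BDNF. The protein in the medium adds no RNA, so the BDNF values come from the cells' own RNA, which at this locus includes transcripts of both strands.

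Levels are FPKM, fragment numbers corrected for transcript length and sequencing depth. The deposited table gives a gene 1 value for each day, in which the authors' program combined that day's cultures. No spread between cultures was therefore computed, no test was run, and the order of 2 neighbouring levels has no error attached. Depth behind each value is unknown. Changes are differences in log2(FPKM + 0.1), which understates changes of low genes, and a change of at least 1 in size is described as past 2-fold. Between days 0 and 18 the median change was -0.60 over the 11793 coding records whose mean FPKM reached 1, so changes are also given relative to that median. The progenitor genes NES and SOX2 stood at 513 and 126 FPKM on day 0 and at 180 and 66.1 on day 18. Of 9 neuronal markers, 8, all but GAP43, were past 2-fold higher on day 18. The share was 10.6% among the 14107 coding records whose mean FPKM reached 0.1. STMN2 was at 32.3 and 727, DCX at 5.46 and 88.0, SLC17A6 at 1.32 and 25.4 and ELAVL4 at 0.149 and 4.89 FPKM on days 0 and 18.

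BDNF, NTF3, NGFR and SORT1 share exon bases with a record on the other strand, so the sequences that matter most for reading these values are those that both strands use. The BDNF record (chromosome 11, 27676444 to 27743605, minus strand, hg19) has 17 annotated transcripts, which start at several promoters and all end in the same last exon. The 4753 bases at this end, 61.5% of the exon bases of the record, are also exonic in the antisense record linc-BDNF-AS. They hold the main protein-coding part of BDNF, and all 17 BDNF transcripts contain the 225-base antisense exon that lies entirely inside the coding sequence (27679785 to 27680009). An edge of it is shown in the BDNF sense direction, read from GRCh37, with the 105 bases that lie in this antisense exon in capitals. The next 15 coding bases, just outside it, are in lower case. They too are among the 4753 shared bases, through another exon of linc-BDNF-AS, so the case marks this exon and not the end of the overlap.
BDNF coding strand, chr11:27679770-27679889 (minus strand): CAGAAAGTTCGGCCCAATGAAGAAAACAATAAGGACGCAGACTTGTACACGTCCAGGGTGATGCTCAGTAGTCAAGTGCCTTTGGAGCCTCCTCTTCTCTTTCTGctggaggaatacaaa

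The NTF3 record (chromosome 12, 5541280 to 5604463, plus strand) has 2 transcripts, of which 1 starts at 5541280 and 1 at 5603298. The exon bases it shares with linc-NTF3-AS are 188 of 1395 (13.5%), from 5541280 to 5541467, at the start of the first of these transcripts. The 250 bases before the RefSeq start site of NTF3 (sequence from RefSeq, GRCh38.p14) matched GRCh37 at 1 place in the region around the gene and fall inside a single exon of that antisense record (5540949 to 5541467). They end before the record starts and so hold no shared exon bases, and they are printed because they lie in a transcript of the other strand, with the GC box GGGCGG (searched on both strands) in capitals. It occurs 2 times there, and 42.3% of 27305 RefSeq promoter windows of this length hold it. The RefSeq table had a promoter for 5 of the 6 members. The cyclic AMP response element TGACGTCA and the TATA box TATAAA, searched in the same way, were not in this window and are in 1.77% and 11.1% of all windows.
NTF3 upstream window, chr12:5541024-5541273 (plus strand): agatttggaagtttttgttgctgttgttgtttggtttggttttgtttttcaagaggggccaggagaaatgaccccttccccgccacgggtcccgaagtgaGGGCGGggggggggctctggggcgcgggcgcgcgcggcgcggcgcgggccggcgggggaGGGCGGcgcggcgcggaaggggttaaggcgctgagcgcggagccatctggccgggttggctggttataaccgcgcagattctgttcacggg

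The members differed in level and in course. On day 0 the order by FPKM was SORT1, NTRK2, NTRK3, NTF3, BDNF and NGFR. On day 18 it was NTRK2, SORT1, NTRK3, NGFR, BDNF and NTF3, so NGFR had passed both ligands and the ligands had changed places. From day 0 to day 18, NGFR and NTRK2 were past 2-fold higher and NTF3 past 2-fold lower, while BDNF, NTRK3 and SORT1 stayed under 2-fold. Among the 14107 coding records whose mean FPKM reached 0.1, 38.9% were past 2-fold in either direction, 10.6% were past 2-fold higher over the same interval and 28.2% past 2-fold lower. The median change of the 6 members was 0.14 as deposited, against -0.52 over those 14107 records. At single steps, 1 member was past 2-fold at the step into day 1 (8.29% of coding records in either direction), 2 into day 2 (0.567%), 0 into day 4 (1.29%), 0 into day 5 (0.539%), 1 into day 11 (7.13%) and 2 into day 18 (5.2%).

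**Figure D1:**
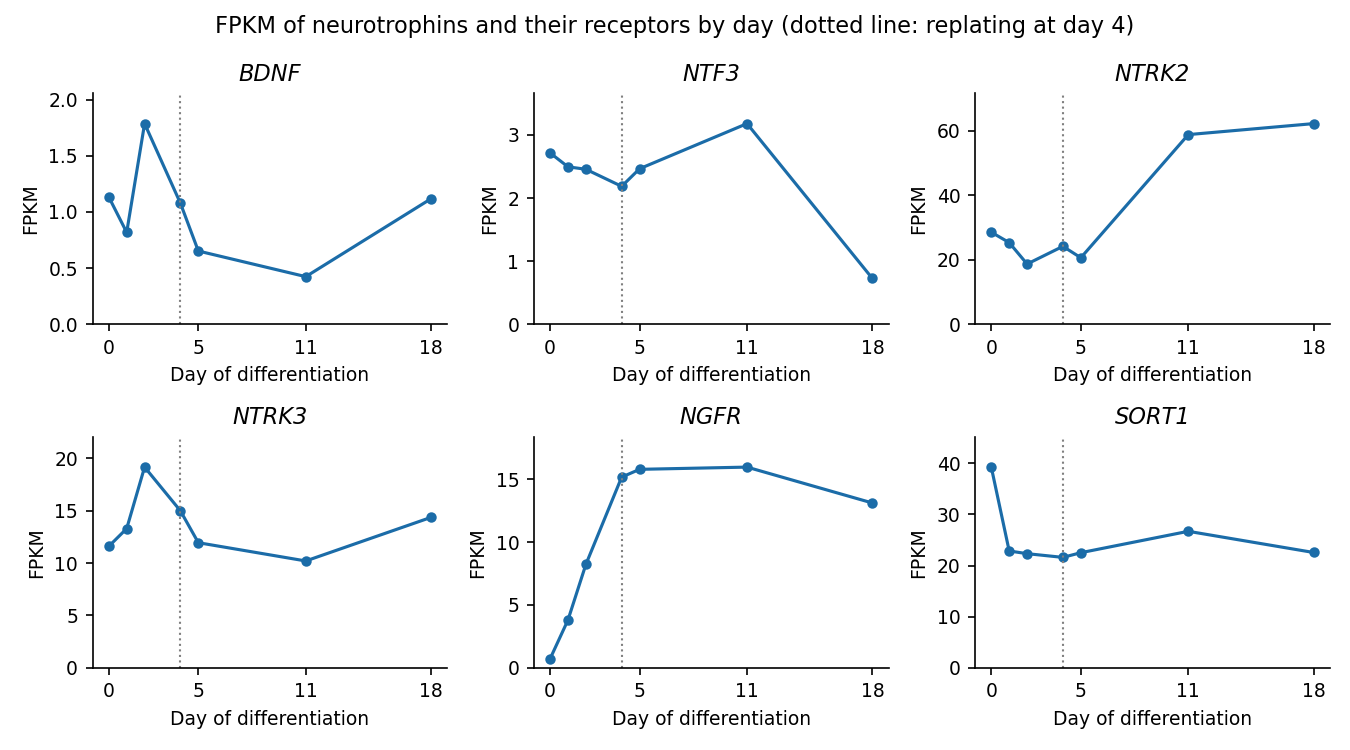
FPKM (vertical axis, linear and starting at 0, scaled for each gene) of the 6 genes against day of differentiation, 1 point per day as deposited over the cultures of that day; the dotted line marks replating. NGFR climbs from 0.709 to 15.2 by day 4, NTRK2 stays between 18.7 and 28.5 until day 5 and reaches 62.2, and NTF3 drops only at day 18.

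BDNF was present at a low level throughout. Its FPKM was 1.13 on day 0, 0.818 on day 1, 1.79 on day 2, 1.08 on day 4, 0.652 on day 5, 0.424 on day 11 and 1.12 on day 18. It was highest on day 2 and lowest on day 11, and the first and last day were nearly the same. The steps into day 2 (a change of 1.04) and into day 18 (1.22) were past 2-fold, whereas only 0.269% and 1.66% of coding records were past 2-fold higher at those steps. Relative to the median record of the step, the first of these fell just under the 2-fold mark. Between days 2 and 11 every value was below the one before it.

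The antisense record had a different course. FPKM of linc-BDNF-AS was 0.574 on day 0, 2.03 on day 1, 2.19 on day 2, 2.11 on day 4, 3.38 on day 5, 1.38 on day 11 and 1.31 on day 18. It was below BDNF on day 0 and above it on all 6 later days, with the widest gap on day 5. The default library type of the authors' programs does not separate strands, so reads in the shared coding exon printed above cannot be assigned to a strand with certainty, and both sets of values are uncertain. The same limit holds for the exon bases that NTF3, NGFR and SORT1 share with records on the other strand.

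**Figure D2:**
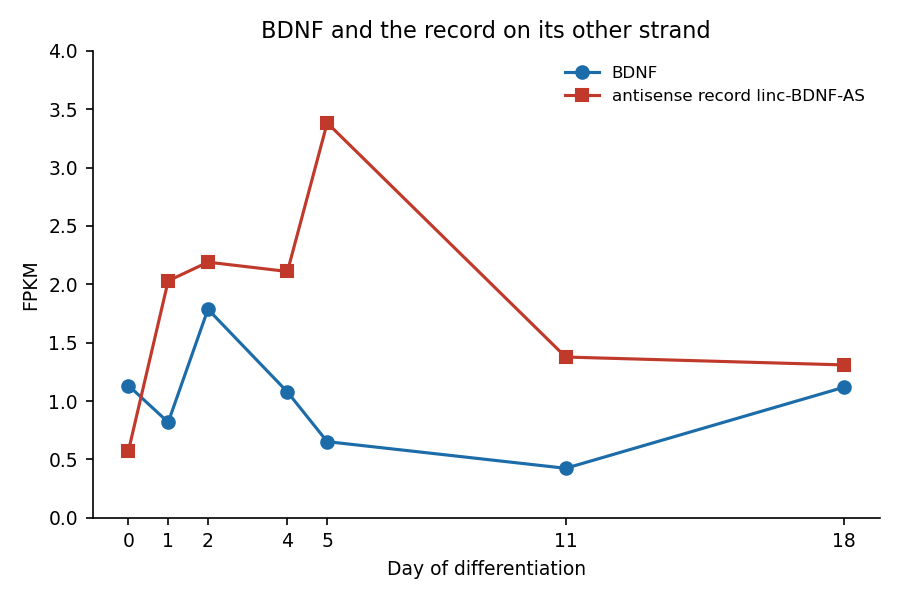
FPKM of BDNF and of the antisense record linc-BDNF-AS (vertical axis, linear) by day of differentiation, 1 deposited value per day. The antisense record lies below BDNF on day 0 and above it on the other 6 days, reaching 3.38 on day 5 when BDNF is at 0.652.

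NTF3 encodes NT-3, the preferred ligand of TrkC. Its FPKM was 2.72 on day 0, 2.50 on day 1, 2.46 on day 2, 2.19 on day 4, 2.47 on day 5, 3.18 on day 11 and 0.727 on day 18. It thus lay in a narrow band for 6 days and dropped at the last. The step from day 11 to day 18 had a change of -1.99, lower than all but 0.0922% of coding records, and 3.54% of coding records were past 2-fold lower at that step. Against day 0 the change was -1.77, or -1.17 when set against the median record, whereas with day 11 as the last day it was 0.22, so the call rests on day 18 alone. The antisense record linc-NTF3-AS ranged from 0.0123 FPKM on day 18 to 0.325 on day 11, its lowest and highest on the same days as NTF3. These records share 188 exon bases, where reads cannot be assigned to a strand with certainty. Whether shared reads lie behind the match was not tested.

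NTF4, a further TrkB ligand, sits in a record merged with chorionic gonadotropin genes (CGB, CGB7 and CGB8), and the merged value was at most 0.220. BDNF exceeded NTF3 on day 18 only: the ratio of BDNF to NTF3, which is free of the scaling between days, was 0.417 on day 0, 0.133 on day 11 and 1.54 on day 18.

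NTRK2, the receptor for the BDNF in the medium, was among the more abundant coding transcripts. Its FPKM was 28.5 on day 0, 25.3 on day 1, 18.7 on day 2, 24.2 on day 4, 20.6 on day 5, 58.8 on day 11 and 62.2 on day 18. The values of the first 5 days lay well below those of days 11 and 18, with no overlap. Its level exceeded that of 86.3% of coding records on day 0 and of 97.4% on day 18. The change from day 5 to day 11 was 1.51, the only step of this gene past 2-fold, where 2.56% of coding records were past 2-fold higher. From day 0 to day 18 it was 1.12, and 1.72 relative to the median. The authors' table marks the comparisons of NTRK2 between days 0 and 1 and between days 1 and 2 as failed, so its early levels are less certain.

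The NTRK2 record (chromosome 9, 87283466 to 87638505, plus strand) combines 9 transcripts. Receptors without the kinase domain are made from NTRK2 transcripts that end before the kinase exons, and they are the main form in astrocytes. Of the 9 transcripts, 2 reach the 3′ end of the record at 87638505, 1 ends at 87573178, 3 end at 87492812 and 3 at 87430621. The FPKM value sums over them, so signalling and truncated forms cannot be told apart.

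Markers of neurons and of astrocytes and radial glia were read beside NTRK2, and the glial ones did not all move together. The summed FPKM of the 9 neuronal markers was 615 on day 5 and 1026 on day 11, of which STMN2 held 238 and 517. That of the 9 astrocyte and radial glia markers was 226 and 290, most of it from FABP7 at 130 and 181. Within this list HES5, a Notch target, went from 9.43 to 29.5 and SOX9 from 4.69 to 24.5 FPKM between these days. The gap junction gene GJA1 went from 48.2 to 16.5, and SLC1A3, a glial glutamate transporter, was at 32.3 and 36.2. From day 0 to day 18, 3 of the 7 genes whose mean FPKM reached 0.1 were past 2-fold higher (SLC1A3, HES5 and SOX9) and 2 lower (S100B and GJA1). Of all coding records, 10.6% were past 2-fold higher and 28.2% lower. Relative to the median 4 were higher, with FABP7 added at 1.00, and 1 was lower. The share of coding records on that scale was not computed. The defining astrocyte genes GFAP, AQP4 and ALDH1L1 were at most 0.186, 0.342 and 0.0364 on every day. In bulk RNA, more cells of a type and more RNA per cell cannot be told apart, and the part of these cell types in the NTRK2 values was not tested.

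NTRK3, which encodes TrkC, moved little. FPKM was 11.6 on day 0, 13.3 on day 1, 19.2 on day 2, 15.0 on day 4, 11.9 on day 5, 10.2 on day 11 and 14.4 on day 18. It was highest on day 2, as BDNF was, and both had their lowest value on day 11. No step was past 2-fold, and the change from day 0 to day 18 was 0.31, or 0.91 when set against the median record. The record (chromosome 15, 88419988 to 88799661, minus strand) holds 7 transcripts, of which 3 reach its 3′ end at 88419988 and 2 stop at 88520596. An antisense record, linc-NTRK3-AS, lies at the locus but shares 0 exon bases with it and stayed at or below 0.0177 FPKM.

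The balance of TrkB and TrkC transcripts therefore shifted. NTRK2 held 71.1% of the summed FPKM of NTRK2 and NTRK3 on day 0, 49.4% on day 2, 63.3% on day 5, 85.2% on day 11 and 81.2% on day 18. The ratio of NTRK2 to NTRK3 was 2.46 on day 0, 0.975 on day 2, 5.76 on day 11 and 4.33 on day 18, and such a ratio does not depend on how days were scaled to each other.

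**Figure D3:**
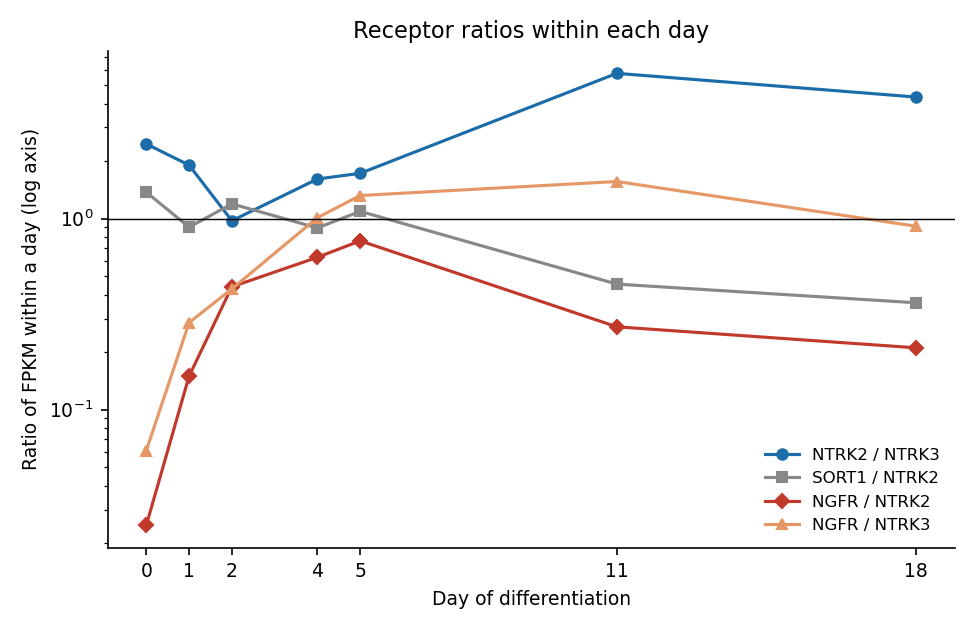
Ratio of 2 receptors' FPKM within the same day (vertical axis, logarithmic) against day of differentiation; the line at 1 marks equal levels. NTRK2 over NTRK3 dips to 0.975 on day 2 and reaches 5.76 on day 11, while NGFR over NTRK2 goes from 0.0248 on day 0 to 0.765 on day 5 and 0.211 on day 18.

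NGFR had the widest range of the 6 genes, with its highest value 22.5 times its lowest. FPKM was 0.709 on day 0, 3.80 on day 1, 8.22 on day 2, 15.2 on day 4, 15.8 on day 5, 16.0 on day 11 and 13.1 on day 18. Day 0 lay below all later days, each of the first 3 steps was upward, and the level then held from day 4. The step into day 1 had a change of 2.27 and the step into day 2 one of 1.09, where 4.61% and 0.269% of coding records were past 2-fold higher. The step across replating, from day 4 to day 5, had a change of 0.06. From day 0 to day 18 the change was 4.03, above 99.3% of the 14107 coding records, and 4.63 relative to the median.

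Within a day, the ratio of NGFR to NTRK2 was 0.0248 on day 0, 0.627 on day 4, 0.765 on day 5, 0.272 on day 11 and 0.211 on day 18. The ratio to NTRK3 went from 0.0611 on day 0 to 1.56 on day 11 and 0.912 on day 18. Both ratios were lowest on day 0, and the ratio of NGFR to NTRK2 was highest on day 5.

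NGFR marks neural crest and Schwann cells as well as some neurons, so markers of those cells were read beside it. The 7 genes read had a summed FPKM of 0.710 on day 0, 0.871 on day 1, 1.18 on day 2, 1.07 on day 4, 1.32 on day 5, 4.12 on day 11 and 3.61 on day 18. The sum was thus low but, like NGFR, above its day 0 value on every later day. Of the 4 genes whose mean FPKM reached 0.1, 2 were past 2-fold higher at day 18 and 1 lower, beside 10.6% and 28.2% of coding records. Relative to the median 2 were higher and 0 lower, and no share of coding records was computed on that scale. The crest factors SOX10 and FOXD3 were at most 0.165 and 0.0873 on every day, and TFAP2A went from 0.0415 on day 0 to 0.418 on day 4 and 3.21 on day 11. The 8 mesenchymal markers had a summed FPKM of 309 on day 0 and 54.0 on day 18, with COL3A1 at 238 and 30.5, COL1A2 at 33.6 and 3.81, PDGFRB at 2.99 and 0.834 in a merged record, TWIST1 at 1.21 and 0.360, and COL1A1 listed at 0 on every day. The part of these cell types in the NGFR values was not tested. The NGFR record (chromosome 17, 47572655 to 47592365, plus strand) has 1 transcript, and 60.5% of its 3403 exon bases lie in exons of linc-NGFR-AS, which ranged from 0.0198 to 0.236 FPKM.

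SORT1, the sorting receptor that binds precursor neurotrophins together with p75 and also directs proteins between the Golgi and endosomes, had its highest level on day 0. FPKM was 39.3 on day 0, 22.9 on day 1, 22.3 on day 2, 21.6 on day 4, 22.5 on day 5, 26.7 on day 11 and 22.6 on day 18. Day 0 stood above all later days, and those 6 days lay within a narrow range. The change from day 0 to day 1 was -0.78, and 7.0% of coding records had a lower value at that step. From day 0 to day 18 it was -0.80 as deposited but only -0.20 relative to the median, and the share of coding records below SORT1 was 90.5% on day 0 and 90.1% on day 18. The late difference from day 0 therefore depended on the scaling, whereas SORT1 over NTRK2 went from 1.38 to 0.363. The record (chromosome 1, 109852192 to 109940563, minus strand) has 3 transcripts, and 64.2% of its exon bases are shared with a linc-SORT1-AS record that stayed at or below 0.350 FPKM.

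Among the relatives of sortilin, SORCS1, a receptor of the same family, had 5.09 FPKM on day 0, 13.8 on day 4 and 12.5 on day 18, a change of 1.28. SORCS2, which can pair with p75, went from 0.160 to 1.59 and SORCS3 from 0.0831 to 0.809. SORL1 stood at 2.36 on day 0, 6.37 on day 5 and 2.07 on day 18. So 3 of the 5 sortilin family genes were past 2-fold higher at day 18 and 0 past 2-fold lower, beside 10.6% and 28.2% of coding records, and with a pseudocount of 1 in place of 0.1 the number past 2-fold was 2. SORT1 over SORCS1 went from 7.71 on day 0 to 1.81 on day 18.

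**Figure D4:**
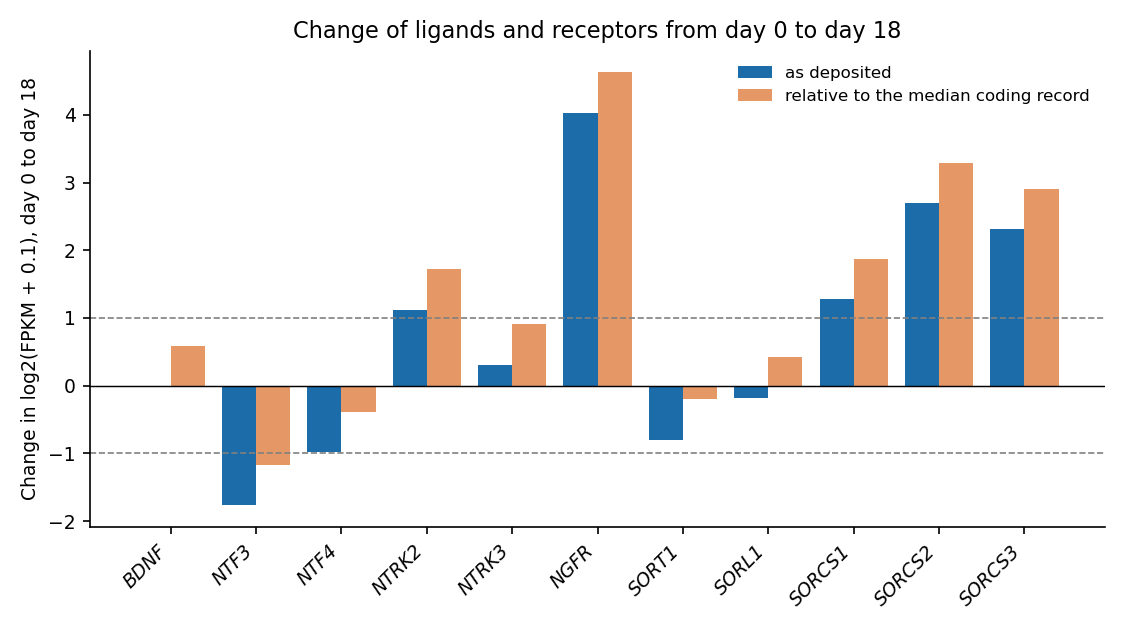
Change in log2(FPKM + 0.1) from day 0 to day 18 (vertical axis) for 3 neurotrophins, 3 Trk and p75 receptor genes and the 5 sortilin family genes; blue bars are as deposited, orange bars relative to the median coding record, and dashed lines mark 2-fold. NGFR is the tallest at 4.03, NTF3 the lowest at -1.77, and the sign of BDNF and SORL1 differs between the colours.

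Genes that act around the receptors were read from fixed lists. The proprotein convertases cleave neurotrophin precursors into the mature ligands, and all 4 listed (FURIN, PCSK5, PCSK6 and PCSK7) were past 2-fold lower at day 18 as deposited. FURIN went from 7.43 to 2.20 FPKM, PCSK6 from 1.96 to 0.133, PCSK7 from 16.9 to 8.04 and PCSK5 from 2.26 to 1.07. Relative to the median only FURIN (-1.11) and PCSK6 (-2.55) remained past 2-fold. As deposited, 28.2% of coding records were past 2-fold lower, and the share relative to the median was not computed.

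Of 9 listed partners of p75, 8 had a record, 2 were past 2-fold higher and 2 lower, beside 10.6% and 28.2% of coding records. Relative to the median 3 were higher, with BEX1 added at 1.03, and 1 was lower. The share of coding records on that scale was not computed. LINGO1, a co-receptor of p75 in the Nogo receptor complex, went from 3.17 FPKM on day 0 to 9.57 on day 5 and 21.8 on day 18, and TNFRSF19, a receptor of the same superfamily that can stand in for p75 there, from 1.54 to 4.65. ARHGDIA, a GDP dissociation inhibitor that p75 binds, went from 232 to 68.0. NGFRAP1, named for its binding to p75, went from 245 to 113, a change that was under 2-fold relative to the median (-0.52). RTN4R, the Nogo receptor itself, was at 5.49 and 6.61. NRADD had no record under that name.

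Of the 18 Trk adaptor genes 2 were past 2-fold higher and 2 lower, with a median change of -0.36, beside 10.6% and 28.2% of coding records and a median of -0.52. Relative to the median record 4 were higher and 2 lower, and the list's median was 0.24. The matching share of coding records was not computed. Inside the SHC family, whose members bind the activated Trk receptors, SHC1 went from 91.8 FPKM on day 0 to 13.5 on day 18, SHC2 from 0.847 to 8.73 and SHC3 from 15.2 to 9.85. KIDINS220, a membrane scaffold and substrate downstream of neurotrophin receptors, went from 31.5 to 87.9 and was higher at each step. SH2B3, an adaptor that dampens several receptor kinases, went from 7.85 to 1.21. The links to the main pathways, PLCG1, GRB2, FRS2 and GAB1, stayed under 2-fold under both scalings.

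Genes that commonly respond to neurotrophins in neurons did not all share a course. EGR1, EGR2, EGR3, FOS and NR4A1 were each above day 0 on days 1 and 2 and below their day 2 level on day 11. From day 0 to day 2, EGR2 went from 0.321 to 0.669 FPKM and EGR3 from 0.0521 to 0.313. Over the same days FOS went from 1.33 to 2.77 and NR4A1 from 3.18 to 5.77. ARC, VGF and HOMER1 were below day 0 on day 1. EGR1, an immediate early transcription factor, had 1.78 FPKM on day 0, 11.5 on day 1, 22.2 on day 2, 23.3 on day 4, 10.4 on day 5, 4.72 on day 11 and 9.12 on day 18. Day 0 was its lowest value. FOS was at 3.29 on day 18. VGF, a neuropeptide precursor, was 53.9 on day 0, 64.1 on day 2, 11.5 on day 11 and 29.6 on day 18. ARC, a synaptic immediate early gene, did not exceed 0.324. HOMER1, a postsynaptic scaffold, was at 7.12 and 4.83. Of the 8 genes, 2 were past 2-fold higher at day 18 and 0 lower as deposited, beside 10.6% and 28.2% of coding records. Relative to the median 4 were higher, with ARC and EGR3 added, and no such share of coding records was computed. FGF withdrawal and BDNF addition coincide at day 0, so what these genes respond to cannot be told apart.

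**Figure D5:**
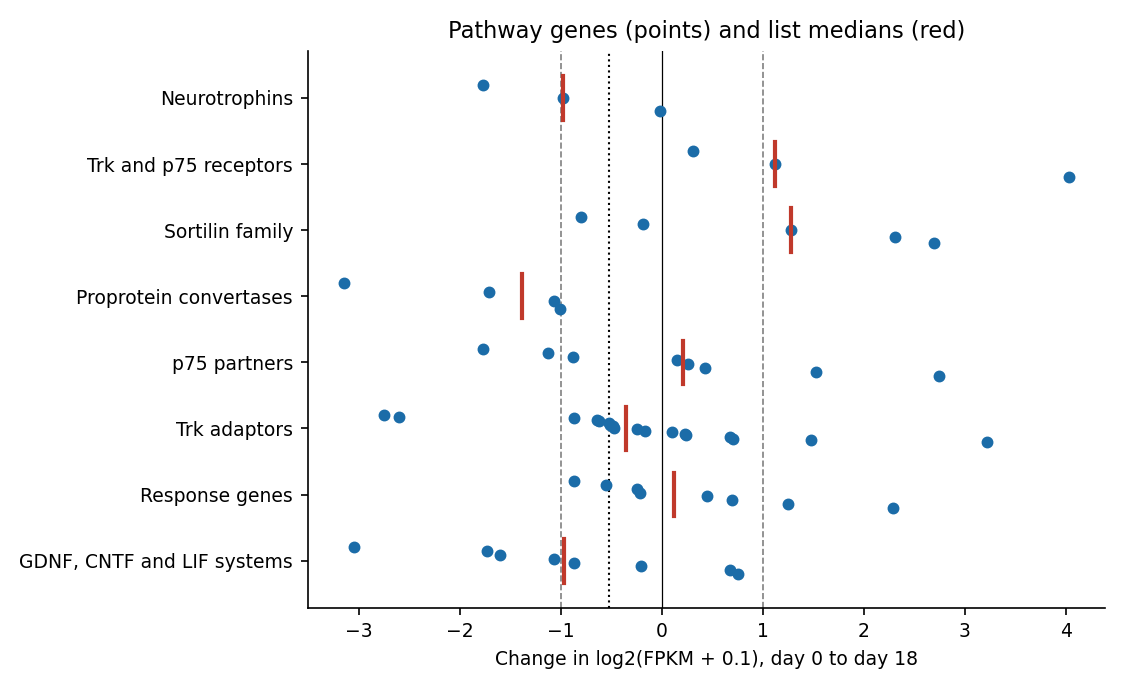
Change in log2(FPKM + 0.1) from day 0 to day 18 (horizontal axis) of each listed pathway gene whose mean FPKM reached 0.1 (points) by list (rows), with the list median in red, the median of all such coding records (-0.52) as a dotted line and 2-fold as dashed lines. The convertases all lie at or below -1, and the sortilin family has its median at 1.28.

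The coding records whose course over the 7 days was most like that of each member were found by Pearson's r of log2(FPKM + 0.1), among 5539 or 5540 records whose mean FPKM and log2 range both reached 1. These values describe 7 points that share their libraries and carry no p. For NGFR the closest were VAMP2, a synaptic vesicle protein (r = 0.998), MYO6 (0.995) and TSNAXIP1 (0.994). For NTRK2 they were GATSL1 (0.990), PLXNA2, a semaphorin co-receptor (0.982), and TRIM9 (0.980). For SORT1 they were FSCN1, an actin bundling protein (0.989), CHST2 (0.984) and SLC4A7 (0.978).

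For the ligands and NTRK3 the likeness was lower or less certain. COMTD1 was the closest record to both BDNF (0.916) and NTRK3 (0.917). DOK5 (0.896) and BHLHE40 (0.875) followed for BDNF, and CLDN1 (0.905) and KCNJ4 (0.889) for NTRK3. The 2 records closest to NTF3 were a merged TUBA1A and TUBA1B record (0.978) and TUBA1A (0.969), which are listed at 0 on day 18 after 3301 and 524 FPKM on day 11. Their likeness to NTF3 rests on that 0. PCDH18 came next (0.969), at 37.0 FPKM on day 11 and 13.6 on day 18.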

How the data were processed

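Per the labels and the study's methods, the authors used TopHat2 to align paired-end reads to hg19, Cufflinks to assemble transcripts and Cuffdiff2, with default settings, to estimate levels; versions are not given in the sources used here, nor is any strand setting. Each deposited FPKM value belongs to a gene record on a day and combines that day's cultures, as the authors made it; columns holding a single sample numbered 0. The authors' table of comparisons between adjacent days was used for names, exons and the mark of failed comparisons, and its fold changes and p-values were not used. Groups came from sample titles.

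Python 3.11.15 with pandas 2.3.3 and numpy 2.4.6 computed changes in log2(FPKM + 0.1). Past 2-fold means a change of at least 1; the background is the 14107 coding records whose mean FPKM reached 0.1. Recentring used the median of those whose mean reached 1, and the background shares were not recomputed with it. The calculation was tested on simulated data. Members and lists were chosen with earlier results of these data known. Some listed genes are not reported here and were left out of the lists. Named were the other ligands and receptors, the 4 genes of each list with the largest change that reached 1 FPKM, and the 3 records most like each member; other genes named from the lists were chosen after their values were seen. Alternatives were 2 other pseudocounts, 2 scalings, summed records, a stricter threshold, 2 filters and, added after the data had been examined, day 11 as the last day.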

Additional observations from a re-analysis of the deposited data

How the results depend on the processing

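No paired analysis was possible because the files hold 1 value per day, and for the same reason leaving out a replicate was not run. NGFR past 2-fold higher and NTF3 past 2-fold lower from day 0 to day 18 held under both scalings and both other pseudocounts, and so did NTRK2, whose change of 1.12 does not reach the stricter threshold of 1.5. With FPKM scaled to the summed FPKM of the day, NTRK3 came to 1.03 and passed 2-fold. With day 11 in place of day 18, BDNF was -1.23 and NTF3 0.22, opposite in sign to its main value. The number of members past 2-fold from day 1 to day 2 was 2, against 0 with a pseudocount of 1, 1 after recentring, 1 after scaling to the sum and 0 at the stricter threshold; from day 11 to day 18 it was 2, against 1 with a pseudocount of 1 and 1 at the stricter threshold. List medians after recentring were -0.38 for the neurotrophins, 1.72 for Trk and p75 receptors, 1.88 for the sortilin family, -0.79 for the convertases, 0.81 for p75 partners, 0.24 for Trk adaptors, 0.72 for response genes and -0.37 for the GDNF, CNTF and LIF systems. Scaled to the sum, they were 1.84 for Trk and p75 receptors, 2.01 for the sortilin family, -0.69 for the convertases, 0.93 for p75 partners, 0.36 for Trk adaptors, 0.85 for response genes and -0.25 for the last list. The median of the neurotrophins was -0.98, against -0.19 with a pseudocount of 1 and -1.80 with one of 0.01, where 2 in place of 1 were past 2-fold; this median is the value of the merged record of NTF4 and CGB genes, as is the second gene past 2-fold. The genes past 2-fold became 2 convertases and 1 response gene with a pseudocount of 1, 2 and 4 after recentring, 2 and 4 after scaling to the sum, and 2 and 1 at the stricter threshold, where Trk and p75 receptors gave 1. Recentring subtracts the same -0.60 from every gene, so it raises each list median by a constant. Scaling to the sum divides every gene of a day by the same total, and the log2 ratio of these totals between days 0 and 18 was -0.72. Changes of genes well above the pseudocount, such as NTRK3, therefore rose by nearly that amount. A stricter threshold can only lower a count. The cause of the other differences was not tested. The share of coding records past 2-fold in either direction was 38.9%, against 28.1% with no filter and 37.5% where the mean FPKM reached 1. Summing all records of a symbol left every value as it was. For the 6 members this was fixed in advance, as each has 1 coding record. The summed FPKM was 413978 on day 0 and 251156 on day 18. Low values, such as those of BDNF and NTF3, rest on few fragments, but how few is unknown.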

Other observations

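CNTFR, the ligand-binding receptor for ciliary neurotrophic factor, was the most abundant gene of the GDNF, CNTF and LIF systems on day 18, with 40.8 FPKM on day 0, 72.9 on day 11 and 65.2 on day 18. Of its signalling partners, LIFR went from 40.8 to 19.5, a change under 2-fold relative to the median (-0.46), and IL6ST, which encodes gp130, from 20.7 to 6.75. The ligand LIF went from 4.45 to 0.453. CNTF shares a record with ZFP91, so its values of 29.0 and 15.8 cannot be assigned to it alone. In the GDNF system, the co-receptor GFRA1 was at 13.7 on day 0 and 11.9 on day 18, while RET, the kinase it works with, did not exceed 0.143 and GDNF did not exceed 0.128. Of the 14 listed genes, 8 reached a mean FPKM of 0.1, and of these 0 were past 2-fold higher at day 18 and 4 were lower, against 10.6% and 28.2% of coding records. Relative to the median 2 were higher (CNTFR at 1.27 and PSPN at 1.35) and 3 lower, and no share of coding records was computed on that scale.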
